A study of Mus musculus with 24 samples.

Results

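The wild-type (WT) libraries of the Sox3 set were compared between their fraction labels. These are 6 of the 24 libraries in the series, chosen by genotype and set from the labels: 3 WT libraries labelled THY1+ undifferentiated spermatogonia (uSPG) and 3 WT libraries labelled KIT+ differentiating spermatogonia (dSPG). All came from testes of mice at postnatal day 7 on a B6 background, and the donors were WT littermates of mice in which Ddx4-Cre, a germ cell driver, deletes floxed Sox3. Single-cell suspensions were sorted with magnetic beads carrying antibodies to THY1 or KIT, and the testes of 3 mice were pooled for each isolation, so a library stands for a pool and not for 1 animal. Sox3 conditional knockout (cKO) libraries, 3 per fraction, make up the rest of the set. The WT libraries of the Zbtb16 set, sorted in the same way, are set beside them only where stated.

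THY1 is a glycolipid-anchored surface protein that marks undifferentiated spermatogonia in the young testis and is also carried by T cells. KIT is the receptor for stem cell factor, is switched on as spermatogonia enter differentiation, and is also carried by Leydig cells and mast cells. Undifferentiated spermatogonia depend on GDNF, which signals through GFRA1 and RET and keeps factors such as ETV5, BCL6B and ID4 expressed. Retinoic acid then drives the step to differentiating spermatogonia, with Stra8 and Kit as its classical targets, and meiosis follows some days later.

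Both marker transcripts went against the fraction labels of these 6 libraries. Thy1 (chr9:44043384-44048579, plus strand, GRCm38, a protein-coding gene) was 0.253, 0.254 and 0.213 FPKM in replicates 1, 2 and 3 labelled THY1+ and 3.84, 3.59 and 4.06 FPKM in those labelled KIT+. The mean was thus 16.0-fold higher in the fraction whose label names the other protein. Kit (chr5:75574916-75656722, plus strand, protein-coding) was 48.2, 45.6 and 80.1 FPKM in the libraries labelled THY1+ and 12.97, 14.0 and 18.8 FPKM in those labelled KIT+, a 3.80-fold difference of the means the other way. In neither gene did the values of the groups overlap. These values chose how the contrast is read and are given without a test. In the cKO libraries of the same set the markers followed the labels, with Thy1 at 3.61 to 5.26 FPKM in THY1+ and 0.244 to 0.292 FPKM in KIT+, and Kit at 14.2 to 17.1 FPKM in THY1+ and 49.9 to 71.4 FPKM in KIT+. No library was moved to another group. Below, "labelled KIT+" stands for the Thy1-rich and Kit-poor WT group and "labelled THY1+" for the Kit-rich and Thy1-poor one, and a positive log2 fold change is higher in the libraries labelled KIT+. The labels do not say more of how replicates differ than the pooling above, so p-values measure the spread between these libraries. Groups came from the labels alone, and all genes that passed a filter on low values were tested two-sided between the labelled groups. Thy1 and Kit stayed in the fit and in the counts over all genes, but no test of either is given.

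**Figure D1:**
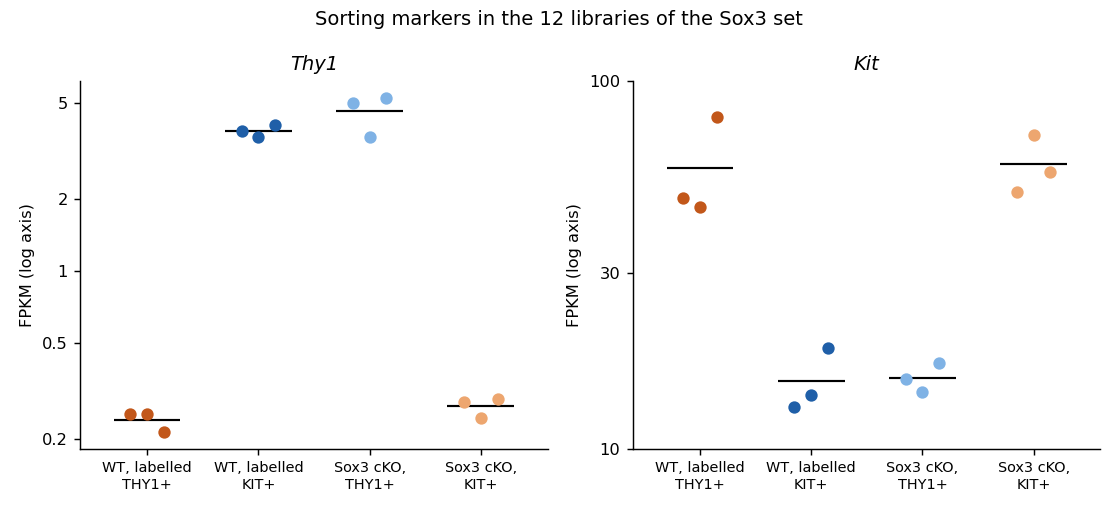
Thy1 and Kit in the 12 libraries of the Sox3 set, in FPKM on a log axis. Each point is 1 library and each line is the mean of 3. WT libraries labelled KIT+ lie beside the cKO libraries labelled THY1+ (Thy1 3.59 to 4.06 FPKM in the first), and WT libraries labelled THY1+ lie beside the cKO libraries labelled KIT+.

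The depth implied by the steps between low FPKM values was, in megareads (M), 31.9, 13.6 and 13.5 for replicates 1, 2 and 3 labelled THY1+ and 30.6, 14.9 and 14.1 for those labelled KIT+, so replicate 1 was the deepest in each group. The 10 highest genes took 37.4% to 51.4% of the summed FPKM in libraries labelled THY1+ and 32.0% to 39.4% in those labelled KIT+, and 15317 to 15521 against 15860 to 16015 genes reached 1 FPKM. Sox3 itself, the gene deleted in the cKO, was 8.67, 6.28 and 24.4 FPKM in libraries labelled THY1+ and 8.63, 9.53 and 11.7 FPKM in those labelled KIT+, against at most 0.0820 FPKM in any cKO library. Germ cell transcripts were abundant in both WT groups, with Dazl at 658, 578 and 663 FPKM and 629, 514 and 590.4 FPKM in the same order. Of 21212 genes tested, 4173 (19.7%) were calls in limma (adjusted p of at most 0.05 and at least 1.5-fold): 2788 (13.1%) were higher in libraries labelled KIT+ and 1385 (6.53%) were higher in those labelled THY1+. With quantile normalization the split was 2222 against 2046, so the excess on the labelled KIT+ side depends on the scaling. Differences of 16-fold or more were found for 165 genes on the labelled KIT+ side and 6 on the labelled THY1+ side. The shares of 19.7%, 13.1% and 6.53% are the background for the counts of calls in each list below.

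Most genes of the list for stem spermatogonia and GDNF signalling were higher in the libraries labelled KIT+. Of 20 genes tested in this list (Pdx1 was not analysed here), 17 were calls in that direction and 0 in the other, with a median log2 fold change of 2.02 beside 0.022 over all genes. Values of the groups did not overlap for 17 of the 20, and for 8609 (40.6%) of all genes tested. Gfra1, the GDNF co-receptor, was 6.10, 4.08 and 7.89 FPKM in the libraries labelled THY1+ and 31.2, 30.6 and 37.5 FPKM in those labelled KIT+. Every library labelled KIT+ lay above every library labelled THY1+, and the log2 fold change was 2.48 ± 0.24 (SE; limma, adjusted p = 1.6e-05). Ret, which encodes the signalling receptor that pairs with GFRA1, went from 4.64, 3.03 and 8.13 FPKM to 24.7, 23.8 and 42.6 FPKM in the same order (log2 fold change 2.57 ± 0.34). Replicate 3 was the highest in both groups, and the groups stayed apart. Id4, a transcriptional inhibitor found in the most stem-like spermatogonia, was 4.53, 2.70 and 4.86 FPKM against 23.6, 19.6 and 23.6 FPKM (log2 fold change 2.48 ± 0.27).

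Transcription factors downstream of GDNF and other genes of the stem state showed the same direction. Nanos2, an RNA-binding protein that holds back differentiation, was 1.16, 0.766 and 1.49 FPKM in libraries labelled THY1+ and 7.17, 7.08 and 5.79 FPKM in those labelled KIT+ (log2 fold change 2.49 ± 0.31; limma, adjusted p = 0.00011). T (brachyury), Lhx1, Etv5 and Bcl6b had log2 fold changes of 2.32, 2.69, 2.11 and 2.03, again with no overlap between groups. Pax7, a factor of rare stem spermatogonia, stayed below 1 FPKM in all 6 libraries (0.144, 0.188 and 0.215 FPKM and 0.635, 0.686 and 0.814 FPKM), and the added 0.1 FPKM weighs on its log2 fold change of 1.52 ± 0.26. Zbtb16, the zinc finger factor that marks undifferentiated spermatogonia, was present in both groups, at 15.9, 14.5 and 28.9 FPKM in libraries labelled THY1+ and 37.8, 45.9 and 67.8 FPKM in those labelled KIT+. Its difference (1.38 ± 0.29 on the log2 scale; limma, adjusted p = 0.0044) was smaller than that of Gfra1 or Nanos2, and no library crossed over. Shisa6 (0.29), Pou3f1 (0.15) and Taf4b (-0.17) were the members that did not pass. Foxo1 passed with overlapping groups (log2 fold change 0.86 ± 0.28) and was no longer a call in 8 of 12 fits made without 1 library each, where its value ran from 0.62 to 1.13.

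**Figure D2:**
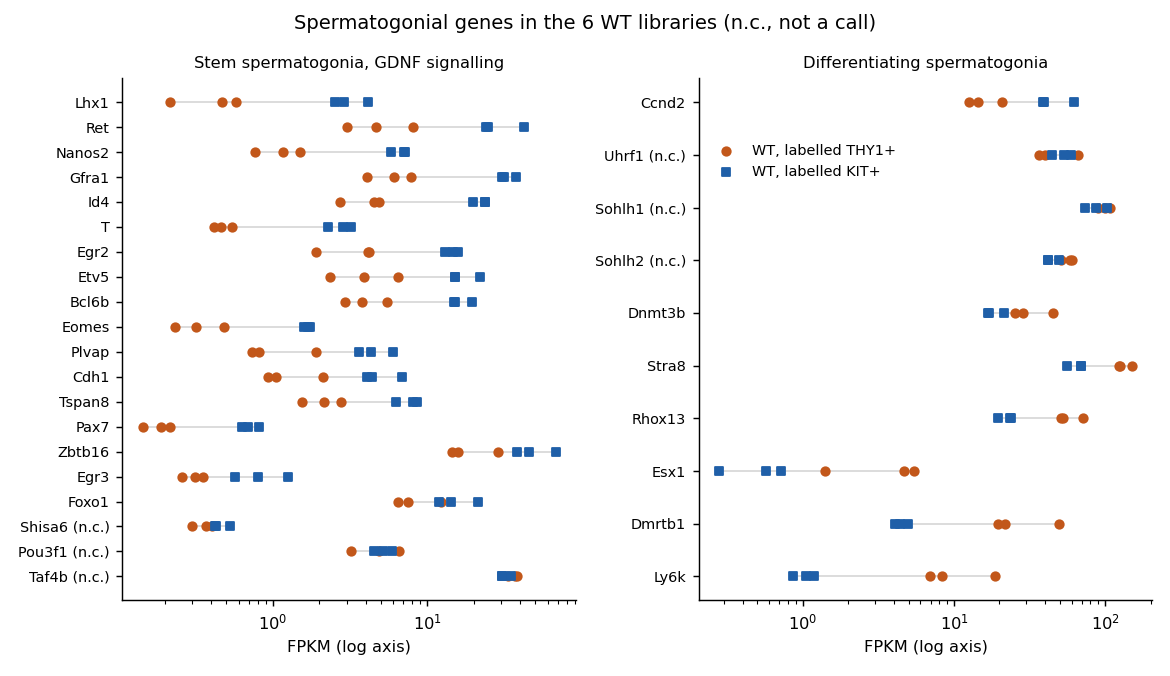
FPKM (log axis) of stem and differentiating spermatogonial genes in the 6 WT libraries, ordered by log2 fold change. Circles are libraries labelled THY1+ and squares are libraries labelled KIT+. Squares lie to the right of circles for the stem genes that were calls (17 of 20) except Foxo1, whose groups overlap, and circles lie to the right for the 6 of 10 differentiation genes called in that direction.

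Progenitor genes were divided. Of 8 tested, Nanos3, Upp1 and Lin28a were higher in the libraries labelled KIT+, and 5 were not calls. Nanos3, which encodes an RNA-binding protein of early germ cells, was 11.2, 8.46 and 7.40 FPKM in libraries labelled THY1+ and 32.7, 33.1 and 22.5 FPKM in those labelled KIT+ (log2 fold change 1.70 ± 0.18; limma, adjusted p = 4.1e-05). Sox3 was not a call (log2 fold change -0.15 ± 0.42; limma, adjusted p = 0.83), and replicate 3 labelled THY1+, at 24.4 FPKM, was its highest library. Sall4, a zinc finger factor of undifferentiated and early differentiating cells, was 12.5, 10.9 and 31.2 FPKM and 23.9, 27.7 and 47.3 FPKM. Again replicate 3 was the highest in each group, the groups overlapped, and Sall4 did not pass (log2 fold change 0.96 ± 0.40; limma, adjusted p = 0.1). Neurog3 (log2 fold change 0.29 ± 0.38) and Rarg (-0.14 ± 0.30) also overlapped.

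Differentiation genes were mostly higher in the libraries labelled THY1+, in the Kit-rich group. Among 10 tested, 6 were calls in that direction and 1 in the other (median log2 fold change -0.93). Stra8, the retinoic acid target needed for meiotic entry, was 123, 150.2 and 126 FPKM in libraries labelled THY1+ and 69.1, 69.1 and 55.5 FPKM in those labelled KIT+. All 3 libraries labelled THY1+ were higher, with a log2 fold change of -1.04 ± 0.15 (limma, adjusted p = 0.00031). Dmrtb1, a transcription factor of the mitosis to meiosis switch, was 19.4, 21.9 and 49.2 FPKM against 4.40, 4.09 and 4.99 FPKM (log2 fold change -2.60 ± 0.37). The largest difference was in Ly6k, which encodes a surface protein of germ cells, at 6.88, 18.6 and 8.30 FPKM and 1.18, 1.05 and 0.858 FPKM (log2 fold change -3.20 ± 0.45). Rhox13, an X-linked homeobox gene, was 51.2, 71.2 and 53.0 FPKM and 23.6, 24.0 and 19.5 FPKM. Ccnd2, the cyclin D2 gene that was placed in this list, ran against it, at 14.3, 12.5 and 20.6 FPKM in libraries labelled THY1+ and 39.7, 38.7 and 62.5 FPKM in those labelled KIT+ (log2 fold change 1.56 ± 0.21; limma, adjusted p = 0.00027). Sohlh1 (-0.17), Sohlh2 (-0.35) and Uhrf1 (0.18) did not pass. Of the calls, Dnmt3b (log2 fold change -0.81 ± 0.24) was lost without replicate 3 labelled THY1+ or without replicate 1 or 2 labelled KIT+ (-0.97 to -0.56 over the fits), and Esx1 (-2.52 ± 0.69) without replicate 2 or 3 labelled THY1+ or replicate 1 labelled KIT+ (-3.11 to -2.17).

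The retinoic acid pathway had 5 of 18 tested genes higher in the libraries labelled THY1+ and 1 higher in those labelled KIT+. Calls made up 33.3% of this list, beside 19.7% of all genes. Aldh1a1, which encodes a retinaldehyde dehydrogenase that makes retinoic acid, was 495, 401 and 287 FPKM and 30.8, 57.7 and 30.7 FPKM (log2 fold change -3.34 ± 0.29; limma, adjusted p = 6.6e-06). Crabp1, a cytosolic retinoic acid binding protein gene, was 208, 239 and 225 FPKM and 83.9, 67.2 and 58.1 FPKM (log2 fold change -1.70 ± 0.15). Groups were fully apart in both genes. Crabp2, which encodes a related retinoic acid carrier, had a log2 fold change of -1.35 ± 0.31. Rxrg, a retinoid X receptor gene, was the single call the other way (2.19 ± 0.40) and stayed at or below 1.12 FPKM in all 6 libraries. Receptor genes Rara and Rarb and the dehydrogenase genes Aldh1a2 and Aldh1a3 were not calls. Cyp26b1, which encodes an enzyme that breaks down retinoic acid, was 26.5, 13.7 and 34.4 FPKM and 7.20, 9.30 and 9.63 FPKM. Its call (log2 fold change -1.42 ± 0.39) was lost without replicate 1 or 3 labelled THY1+ or replicate 1 labelled KIT+ (-1.79 to -1.13 over the fits).

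Of 10 genes for FGF receptors and the inhibitors that FGF signalling induces, 3 receptor genes were higher in the libraries labelled THY1+ and 3 inhibitor genes in those labelled KIT+. Receptor genes Fgfr2, Fgfr3 and Fgfr4 were the calls higher in the libraries labelled THY1+, with log2 fold changes of -1.12 ± 0.17, -1.05 ± 0.22 and -1.14 ± 0.24, and Fgfr4, at under 1 FPKM, was not a call with a pseudocount of 1 or with replicates 2 and 3 alone. Dusp6, a phosphatase that switches off ERK, was 16.5, 10.5 and 17.0 FPKM in libraries labelled THY1+ and 66.2, 57.3 and 65.4 FPKM in those labelled KIT+ (log2 fold change 2.12 ± 0.19; limma, adjusted p = 7.1e-06). Spry4, a Sprouty inhibitor gene, was 1.39, 0.721 and 1.40 FPKM and 4.46, 4.53 and 6.31 FPKM (log2 fold change 2.07 ± 0.25). Neither gene overlapped between groups. Spry1 was also a call (0.68 ± 0.15), but not without replicate 2 labelled THY1+ (0.52 to 0.77 over the fits). Fgfr1 (0.31 ± 0.22), Spry2 (0.75 ± 0.28), Spred1 (0.52 ± 0.11) and Spred2 (0.74 ± 0.26) were not calls.

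Among 13 genes that male germ cells share, Piwil4 was the only call (7.69%, beside 19.7% of all genes). It was 3.48, 2.82 and 4.23 FPKM and 5.98, 7.89 and 8.29 FPKM (log2 fold change 1.06 ± 0.22). Ddx4, the germ cell RNA helicase gene, was 167, 160.4 and 168 FPKM and 209, 204 and 215 FPKM, a difference that passed the p threshold but not the fold threshold (log2 fold change 0.34 ± 0.10; limma, adjusted p = 0.026). Meiosis genes were already transcribed in both groups at this age, with Sycp3, a synaptonemal complex gene, at 167, 162 and 143 FPKM and 119, 96.5 and 101 FPKM. Of 26 tested, 4 were higher in the libraries labelled THY1+ and 0 in those labelled KIT+. The median log2 fold change was -0.29, and 15.4% of the list was called, beside 19.7% of all genes. Prdm9, which encodes the methyltransferase that places recombination hotspots, was 2.65, 5.54 and 4.34 FPKM and 1.02, 0.949 and 1.04 FPKM (log2 fold change -1.90 ± 0.34; limma, adjusted p = 0.0016). Meioc, a factor that lets germ cells stay in meiosis, was 15.8, 35.8 and 17.5 FPKM and 6.92, 7.94 and 8.16 FPKM, with replicate 2 labelled THY1+ the highest (log2 fold change -1.48 ± 0.33). Syce2 (-0.62 ± 0.15) lost its call without replicate 2 labelled THY1+ or replicate 3 labelled KIT+ (-0.73 to -0.46), and Mei1 (-1.08 ± 0.29) in 4 of 12 such fits (-1.21 to -0.94).

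Of 24 replication and mitosis genes, 1 was a call (4.17%, beside 19.7% of all genes). It was Ccne2, the cyclin E2 gene, at 39.5, 54.2 and 37.9 FPKM in libraries labelled THY1+ and 24.8, 20.8 and 21.1 FPKM in those labelled KIT+ (log2 fold change -0.96 ± 0.17). Mki67 (0.04 ± 0.17), Top2a (-0.12 ± 0.11) and Mcm6 (-0.02 ± 0.12) had overlapping groups. Of 11 genes for D-type cyclins, their kinases and CDK inhibitors, 3 were higher in the libraries labelled KIT+ and 1 in those labelled THY1+. Calls made up 36.4% of this list, beside 19.7% of all genes. Cdk6 was the call higher in the libraries labelled THY1+ (10.2, 10.2 and 12.7 FPKM against 5.99, 5.49 and 5.60 FPKM; log2 fold change -0.94 ± 0.13). Cdkn1a, the p21 gene, was higher in those labelled KIT+ (0.635, 1.09 and 0.799 FPKM against 1.94, 1.87 and 2.08 FPKM; log2 fold change 1.16 ± 0.25), but was not a call with replicates 2 and 3 alone. Cdkn1b and Cdkn1c were also calls on that side, and lost their calls in 5 and 6 of 12 fits with 1 library left out.

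Macrophage genes made the largest differences on the labelled KIT+ side. All 16 genes of the list were calls in that direction (median log2 fold change 8.65), and their summed level was 8.38 to 9.45 FPKM in the libraries labelled THY1+ and 1536 to 1946 FPKM in those labelled KIT+. Lyz2, the lysozyme gene, was 0.842, 0.406 and 0.234 FPKM and 438, 385 and 277 FPKM. C1qb, a subunit gene of complement C1q, held about 3 reads over all 3 libraries labelled THY1+ and 9395 over those labelled KIT+, a ratio of 3101 per unit depth with a 95% counting interval of 1061 to 15041 (exact, counting error only). Other members of the list were F13a1, the coagulation factor XIII A gene (0.0639, 0.0561 and 0.0188 FPKM and 84.9, 105 and 107 FPKM), Pf4, a chemokine gene (0.107, 0 and 0.252 FPKM and 208, 172 and 137 FPKM), and Ctss, a lysosomal protease gene (0.346, 0.216 and 0 FPKM and 139, 124 and 106 FPKM). No library of one group reached the other in any of these genes. Over the libraries labelled THY1+, members such as C1qb and F13a1 were below 0.1 FPKM, the limit of the filter on low values. They could pass it through libraries where they are high, so the count of calls in this list is a description. Mrc1, which tissue-resident macrophages express, had a log2 fold change of 8.20 ± 0.15. Csf1r, the receptor that macrophages need, kept 2.20 to 2.63 FPKM in the libraries labelled THY1+ and had a smaller log2 fold change (4.48 ± 0.11). In bulk libraries fewer cells of a type and less RNA per cell cannot be told apart, here and for every list above and below.

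Since these genes moved together, their promoters were read for the site of PU.1, the master factor of macrophages, spelled GAGGAAGT and searched on both strands, from 250 bases before to 50 bases after the RefSeq start (GRCm38.p6). This motif was chosen after several had been counted. Of the 16 genes, 11 had a promoter in the table, and 4 of these held the motif, beside 3.69% of all 27025 genes and 3.20% of all 32851 promoters with a window of the same length. The 4 windows shown are those of the genes with a match, which had log2 fold changes near 9 or above. They are written 5′ to 3′ on the strand of the gene, with the match in capitals. C1qc, a further C1q subunit gene, lies on the minus strand at chr4:136892865-136893164, Ctss on the plus strand at chr3:95526536-95526835, F13a1 on the minus strand at chr13:37049164-37049463 and Pf4 on the plus strand at chr5:90772185-90772484.
C1qc: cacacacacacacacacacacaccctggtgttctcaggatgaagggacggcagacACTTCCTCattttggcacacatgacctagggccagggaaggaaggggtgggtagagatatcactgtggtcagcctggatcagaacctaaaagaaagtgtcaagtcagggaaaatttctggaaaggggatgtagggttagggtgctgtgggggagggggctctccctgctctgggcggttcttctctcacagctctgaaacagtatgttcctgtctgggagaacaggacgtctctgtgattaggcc
Ctss: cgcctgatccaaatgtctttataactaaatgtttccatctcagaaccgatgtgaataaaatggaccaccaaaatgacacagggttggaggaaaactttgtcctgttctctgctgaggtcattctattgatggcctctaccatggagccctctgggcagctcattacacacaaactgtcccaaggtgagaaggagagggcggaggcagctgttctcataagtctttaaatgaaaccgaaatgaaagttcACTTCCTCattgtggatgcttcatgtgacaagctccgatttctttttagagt
F13a1: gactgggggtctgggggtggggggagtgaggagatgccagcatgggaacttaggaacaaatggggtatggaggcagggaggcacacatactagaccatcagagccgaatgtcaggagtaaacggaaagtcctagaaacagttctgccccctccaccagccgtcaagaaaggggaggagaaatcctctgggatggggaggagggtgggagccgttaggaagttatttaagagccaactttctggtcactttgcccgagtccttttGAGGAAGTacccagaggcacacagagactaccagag
Pf4: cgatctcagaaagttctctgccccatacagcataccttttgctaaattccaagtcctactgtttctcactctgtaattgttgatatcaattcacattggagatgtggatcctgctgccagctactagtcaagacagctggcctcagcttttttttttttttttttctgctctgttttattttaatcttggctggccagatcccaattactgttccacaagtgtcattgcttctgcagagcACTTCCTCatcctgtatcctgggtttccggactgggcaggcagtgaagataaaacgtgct
The match was on the opposite strand in C1qc, Ctss and Pf4 and on the gene's own strand in F13a1. Counted from the first base of the window, it started at base 56 in C1qc, 249 in Ctss, 265 in F13a1 and 241 in Pf4, so that in Ctss, F13a1 and Pf4 it lay close to the start of the gene, which is after base 250. Of the other motifs counted, the shorter PU.1 core GAGGAA, which lies within the longer site, was in 7 of the 11 genes, in 5 of 7 T cell genes with a promoter and in 31.3% of all genes. CACTTCCT, which overlaps the same core on the other strand, was in 4 of the 11, in 3 of the 7 T cell genes and in 4.68% of all genes. The longer site was in 0 of the 7. AAGGTCA, the site of steroidogenic factor 1, was in 0 of 6 Leydig genes with a promoter, beside 5.38% of all genes. The retinoic acid direct repeat, AGGTCA repeated after 5 bases, was in 0 genes of the macrophage, Leydig, stem, T cell and mast cell lists, and TATAAA in 1 of 11 macrophage genes beside 15.7% of all. A match is a description of these letters, not evidence of binding.

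Other immune lists went the same way. Of 11 T cell genes 10 were higher in the libraries labelled KIT+, and their summed level was 1.98 to 2.87 FPKM in the libraries labelled THY1+ and 21.3 to 28.1 FPKM in those labelled KIT+. Cd3g, a gene for a CD3 chain of the T cell receptor complex, was 0.117, 0 and 0.138 FPKM and 11.3, 13.2 and 8.25 FPKM (log2 fold change 5.96 ± 0.40; limma, adjusted p = 7.0e-07). Cd4, also found on macrophages, was 0.0622, 0.0365 and 0.0550 FPKM and 2.62, 3.21 and 3.35 FPKM. Cd3e had overlapping groups (log2 fold change 0.85 ± 0.48) and was not a call. All 5 mast cell genes tested were higher in the libraries labelled KIT+, with Cpa3, the mast cell carboxypeptidase gene, at 0.497, 0.506 and 0.509 FPKM and 18.7, 14.0 and 11.1 FPKM and Mcpt4, a chymase gene, at 0.0317, 0.0742 and 0.523 FPKM and 20.0, 15.0 and 10.4 FPKM. Fcer1a, also in this list, was not analysed here. Cd4, Cd28 and Ms4a2 were below the 0.1 FPKM limit of the filter over the libraries labelled THY1+. The T cell and mast cell counts are therefore likewise a description. Mast cells carry KIT, and their genes were higher in the Kit-poor group. All 5 were also calls lower in KIT+ in the cKO and in the Zbtb16 WT libraries. Among 7 MHC class II genes 6 were higher in the WT libraries labelled KIT+ too, led by Cd74, the invariant chain gene (1.31, 0.990 and 0.787 FPKM and 12.3, 15.1 and 11.7 FPKM; log2 fold change 3.56 ± 0.27). Thy1 moved with these lists as well as with the stem cell list, and their part in the Thy1 level was not tested.

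**Figure D3:**
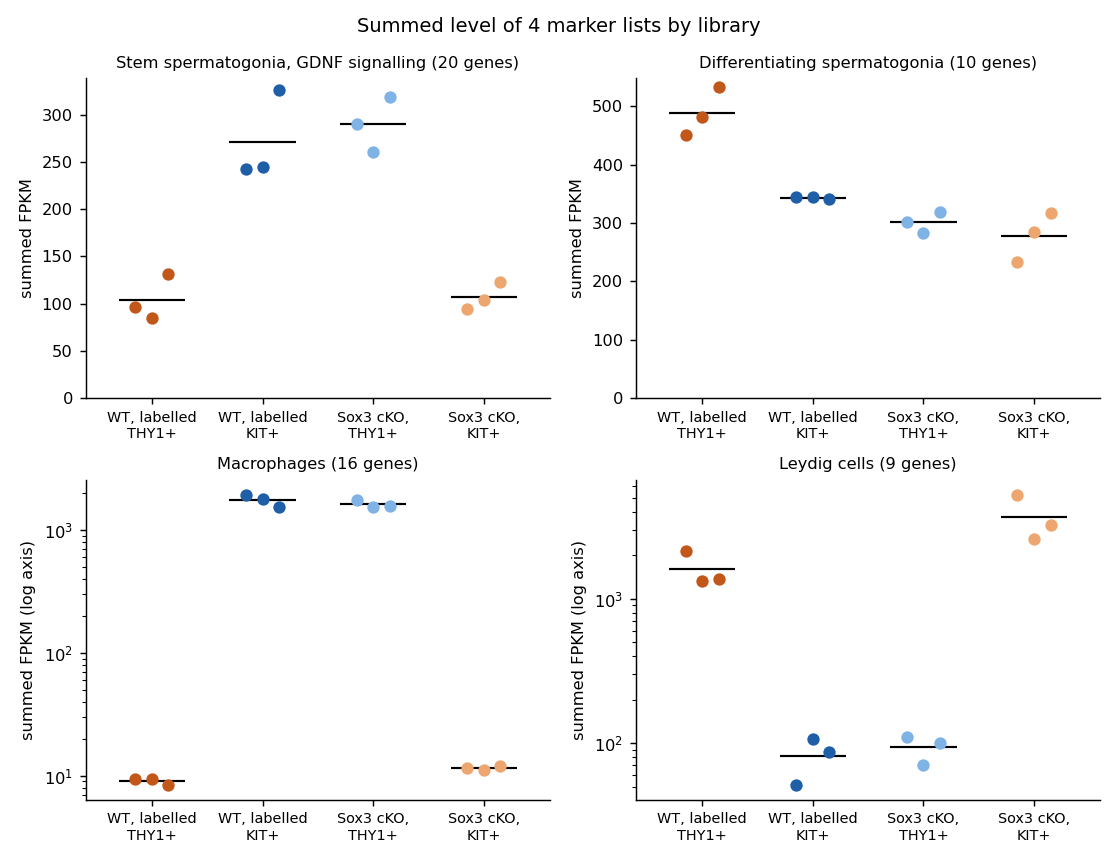
Summed FPKM of 4 marker lists in each library of the Sox3 set (points) with the mean of 3 (lines). Axes start at 0 for the spermatogonial lists and are logarithmic for macrophage and Leydig genes. Macrophage genes sum to 1536 to 1946 FPKM in WT labelled KIT+ and Leydig genes to 1326 to 2148 FPKM in WT labelled THY1+.

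Leydig cell genes made the largest differences on the labelled THY1+ side. All 9 were calls (median log2 fold change -3.99), and their sum was 1326 to 2148 FPKM in the libraries labelled THY1+ and 51.1 to 107 FPKM in those labelled KIT+. Hsd3b1, a steroid dehydrogenase gene, was 824, 606 and 472 FPKM and 19.1, 48.0 and 31.7 FPKM (log2 fold change -4.32 ± 0.35; limma, adjusted p = 3.7e-06). Cyp17a1, the enzyme gene on the way to testosterone, was 421, 200.0 and 322 FPKM and 7.67, 12.9 and 16.8 FPKM (log2 fold change -4.65 ± 0.32). Insl3, the hormone gene for testis descent, was 289, 185 and 183 FPKM and 5.34, 12.9 and 6.97 FPKM (log2 fold change -4.75 ± 0.35). In all 3 genes the lowest library labelled THY1+ was above the highest labelled KIT+. Star, the cholesterol carrier gene of steroid synthesis, was 136, 42.1 and 84.1 FPKM and 5.94, 8.06 and 10.8 FPKM, so Leydig transcripts were low but not at 0 in the libraries labelled KIT+. Lhcgr, the receptor gene for luteinizing hormone, followed (log2 fold change -3.83 ± 0.29). Hsd3b6 held 55 reads over the libraries labelled THY1+ and 3 over those labelled KIT+, a ratio of 18.5 (95% counting interval 6.01 to 92.5), and its call was lost without replicate 2 labelled THY1+ or replicate 3 labelled KIT+ (log2 fold change -2.53 to -2.05). Over the libraries labelled KIT+, Hsd3b6 was below the 0.1 FPKM limit of the filter on low values. It could pass through libraries where it is high, so the count of calls in the Leydig list is likewise a description. Kit and Aldh1a1 were high in the same libraries as the Leydig list, whose part in their levels was not tested. Of 14 cholesterol genes, Scarb1, the receptor gene for cholesterol uptake from HDL, was 27.6, 17.1 and 31.4 FPKM and 7.17, 7.62 and 7.75 FPKM (log2 fold change -1.69 ± 0.19). Hmgcs1 (-0.64 ± 0.13) was the other call of this list, and it was lost without replicate 1 labelled KIT+ (-0.71 to -0.55 over the fits). Calls made up 14.3% of the cholesterol list, beside 19.7% of all genes.

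Other somatic lists moved less. Sertoli cell genes Amh (-0.20 ± 0.28), Sox9 (0.05 ± 0.46) and Wt1 (-0.18 ± 0.34) had overlapping groups. Of 13 tested, 2 were higher in the libraries labelled THY1+ and 1, Rhox5, in those labelled KIT+ (23.1% called, beside 19.7% of all genes). Gdnf, the ligand that Sertoli and peritubular cells make for spermatogonia, was one of the 2, at 3.46, 1.55 and 3.48 FPKM and 1.11, 0.821 and 0.831 FPKM (log2 fold change -1.45 ± 0.28; limma, adjusted p = 0.0031). The ligand was thus higher where its receptor genes Gfra1 and Ret were lower. Gata4 (-0.78 ± 0.21) lost its call without replicate 1 labelled THY1+ or replicate 3 labelled KIT+ (-0.91 to -0.58). Endothelial genes were higher in the libraries labelled THY1+ in 5 of 9 cases, among them Emcn (1.16, 0.720 and 1.23 FPKM and 0.368, 0.310 and 0.132 FPKM; log2 fold change -1.65 ± 0.35) and Tie1 (-1.46 ± 0.30). Tie1 was not a call with a pseudocount of 1 or with replicates 2 and 3 alone, and with those replicates alone 1 of the 9 genes was a call. Pecam1, Kdr and Egfl7 lost their calls in 4 to 7 of the 12 fits with 1 library left out. Of 14 peritubular and stromal genes, 4 were higher in the libraries labelled KIT+ (28.6%, beside 13.1% of all genes). Des, the desmin gene, was the 1 that kept its call in every such fit, at 1.76, 0.998 and 1.30 FPKM and 4.14, 3.93 and 2.48 FPKM (log2 fold change 1.31 ± 0.28). Red blood cell genes gave 0 calls of 5, with summed levels of 5.07 to 24.3 FPKM and 5.16 to 13.04 FPKM.

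Of 9 surface protein genes used to enrich spermatogonia, 6 were higher in the libraries labelled KIT+ and 1 in those labelled THY1+. Gfra1 and Cdh1, among the 6, are also in the stem list. Itga6 and Itgb1 are also in the basement membrane and integrin list below, so these counts are not independent. Cd9 (0.87 ± 0.26) was among the 6 and lost its call in 5 of 12 fits with 1 library left out (0.80 to 1.0). Itga6, the alpha-6 integrin gene, was 9.64, 8.34 and 11.5 FPKM and 20.3, 21.2 and 26.0 FPKM (log2 fold change 1.19 ± 0.16; limma, adjusted p = 0.00027), whereas its partner Itgb1 overlapped (0.11 ± 0.13). Mcam (0.98 ± 0.18), Icam1 (0.89 ± 0.15) and Cdh1 (1.88 ± 0.32) were also higher in the libraries labelled KIT+. Cd24a was the call the other way, at 47.6, 33.6 and 24.5 FPKM and 15.2, 14.2 and 11.0 FPKM (log2 fold change -1.34 ± 0.22). Epcam did not pass (-0.05 ± 0.20).

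In glycolysis, 5 of 16 genes were higher in the libraries labelled KIT+ and 0 in those labelled THY1+ (31.25% called, beside 19.7% of all genes). Glucose transporter genes Slc2a1 and Slc2a3 had log2 fold changes of 0.96 ± 0.14 and 1.05 ± 0.14. Pkm, the pyruvate kinase gene, was 83.3, 60.6 and 91.3 FPKM and 163, 157 and 174 FPKM (log2 fold change 1.09 ± 0.16; limma, adjusted p = 0.00053). No library overlapped in these 3 genes. Ldha (0.78 ± 0.25) was a call with overlapping groups that was lost in 7 of 12 fits with 1 library left out. Of 13 imprinted genes tested (Kcnq1ot1 was not analysed here), 6 were higher in the libraries labelled KIT+ and 1, Grb10 (-0.87 ± 0.18), in those labelled THY1+. Mest, a paternally expressed gene, was 10.1, 6.48 and 10.7 FPKM and 19.2, 17.6 and 17.4 FPKM (log2 fold change 1.02 ± 0.21). Mest and Igf2 kept their calls in each fit with 1 library left out. Meg3 lost its call in 7 of 12 such fits (0.61 to 0.86), Dlk1 without replicate 2 of either WT group (1.0 to 1.61), Snrpn without replicate 2 labelled THY1+ or replicate 1 labelled KIT+ (0.61 to 0.75), and Plagl1 without replicate 2 labelled THY1+ (0.54 to 0.89). With quantile normalization 4 of the 13 were higher in the libraries labelled KIT+. Of 12 immediate early genes, 3 were higher in the libraries labelled KIT+ and 0 in those labelled THY1+ (25% called, beside 19.7% of all genes). Atf3, a stress-induced factor, was 1.17, 0.704 and 0.969 FPKM and 10.3, 6.72 and 6.78 FPKM (log2 fold change 2.94 ± 0.31). Dusp1 (1.08 ± 0.27) lost its call without replicate 2 labelled KIT+ (0.98 to 1.17 over the fits), and Zfp36 (0.98 ± 0.28) without replicate 2 or 3 labelled THY1+ or replicate 1 labelled KIT+ (0.85 to 1.14). Fos (0.13 ± 0.28), Junb (-0.34 ± 0.39) and Ier2 (0.04 ± 0.41) had overlapping groups. Cell dissociation can induce genes of this list. DNA methyltransferase gene Dnmt1 was 65.4, 57.9 and 133 FPKM and 74.1, 71.2 and 112 FPKM, with replicate 3 the highest of both groups and no call (0.08 ± 0.32). Dnmt3l was the only call of 6 in its list (0.97 ± 0.30), at under 1 FPKM in all 6 libraries, and it was lost in 5 of 12 such fits. Calls made up 16.7% of that list, beside 19.7% of all genes. In the basement membrane and integrin list, Itga6 and Itgav (0.80 ± 0.15) were higher in the libraries labelled KIT+. Itga9 was higher in those labelled THY1+ (-0.74 ± 0.23, lost in 5 of 12 fits with 1 library left out). The other 9 of 12 genes were not calls, so 25% of this list was called, beside 19.7% of all genes.

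**Figure D4:**
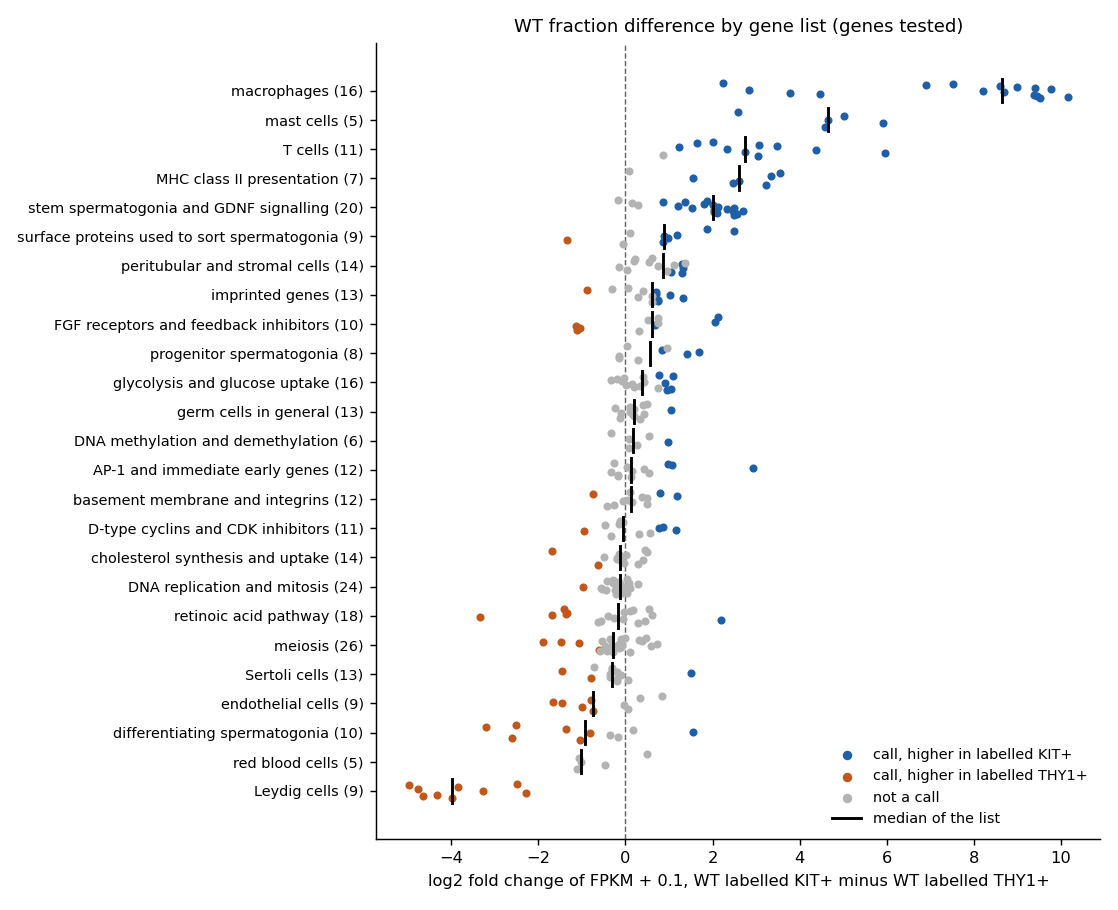
Log2 fold change of each tested gene in 25 lists, WT labelled KIT+ minus WT labelled THY1+, on FPKM + 0.1. Blue and orange points are calls in each direction, grey points are not calls, and bars are medians, from -3.99 for Leydig cell genes to 8.65 for macrophage genes.

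Among genes with a regular symbol (no predicted genes or small RNAs), at least 1 FPKM in the higher group and no overlap between groups, the 10 calls highest in the libraries labelled KIT+ were C1qb, Pf4, C1qa, C1qc, F13a1, Lyz2, Ctss, Emr1 (Adgre1), Fcrls and Tyrobp, with log2 fold changes of 10.15 down to 8.61. All of these but Fcrls, an Fc receptor-like gene, were in the macrophage list. By the same limits, the 10 highest in the libraries labelled THY1+ were Ren1, Insl3, Cyp17a1, Aldh3a1, Hsd3b1, Cyp11a1, Cst8, Hao2, Olfr330 and Lhcgr (-4.96 to -3.83). Ren1, the renin gene, was 141, 85.2 and 78.8 FPKM and 2.50, 4.09 and 2.79 FPKM. Aldh3a1, Cst8 and Hao2 were in no list, and Cst8, a cystatin gene, was 93.2, 62.0 and 52.6 FPKM and 3.75, 5.34 and 4.09 FPKM. Olfr330, also in no list, belongs to the olfactory receptor family, whose members resemble each other, and reads were allowed several positions, so its value is uncertain. None of the named spermatogonial genes was among these 20.

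The same sort was made in the cKO libraries, which share no sample with the WT ones. As labelled, the KIT+ minus THY1+ difference of the 6 WT libraries ran opposite to that of the cKO (Pearson r = -0.84 over 21212 genes, which share libraries and are not independent) and to that of the WT libraries of the Zbtb16 set (r = -0.94 over 21037 genes; that table was normalized separately). The cKO contrast gave 4809 calls (22.7%), 2227 (10.5%) higher and 2582 (12.2%) lower in KIT+, and the Zbtb16 WT contrast 4737 calls (21.2%), 1614 (7.21%) higher and 3123 (14.0%) lower in KIT+. Of the WT calls, 2794 were calls of opposite sign in the cKO contrast (67.0% of the WT calls and 58.1% of the cKO calls), and 7 had the same sign. In the Zbtb16 WT contrast 3336 were called with the opposite sign (80.7% of the WT and 72.8% of the Zbtb16 calls tested in both), and 0 with the same sign.

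As labelled, the stem and Leydig lists had the opposite sign in both other contrasts. The median log2 fold change of the stem list was 2.02 in WT of the Sox3 set, -1.78 in the cKO and -2.07 in the Zbtb16 WT libraries, and of the Leydig list -3.99, 4.89 and 4.03. Gfra1 had log2 fold changes of 2.48, -1.99 and -2.60 in these contrasts, and Kit-side gene Ly6k -3.20, 3.19 and 3.12. Stra8 was a call in WT (-1.04) and in the Zbtb16 WT libraries (1.11) but not in the cKO (0.22). Endothelial genes were 5 of 9 calls in WT and 5 of 9 in the cKO (median -0.75 and 1.44), but 0 were higher in KIT+ and 2 lower in the Zbtb16 WT libraries. When groups with like Thy1 and Kit levels were aligned and the WT and cKO contrasts were tested against each other, 0 of 21212 genes (0%) were calls in limma. The smallest adjusted p was 0.16, and 2709 genes had an unadjusted p under 0.05, so this does not show that the contrasts are equal. The difference for Stra8 was 0.82 ± 0.21 (limma, adjusted p = 0.18) and for Gfra1 -0.49 ± 0.34 (adjusted p = 0.56).

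**Figure D5:**
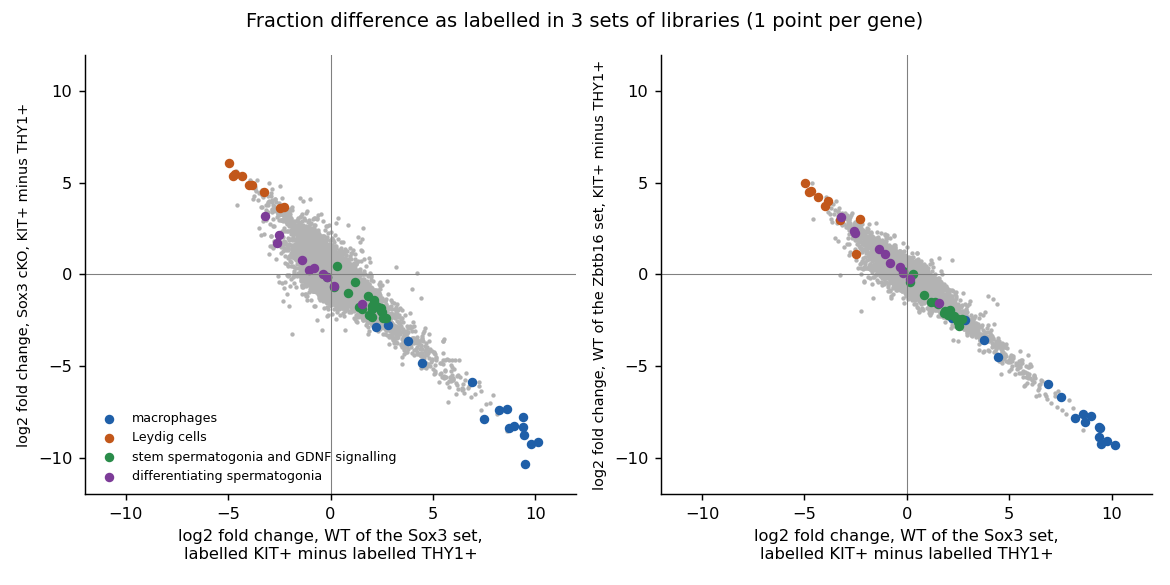
Log2 fold changes as labelled (KIT+ minus THY1+), with WT of the Sox3 set on the horizontal axis and the Sox3 cKO (left) or the WT of the Zbtb16 set (right) on the vertical axis. Each point is a gene and 4 lists are coloured. Points run from upper left to lower right, with r = -0.84 and -0.94.

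Within each WT group, libraries agreed closely (Pearson r of log2 values 0.958 to 0.977 in those labelled THY1+ and 0.957 to 0.982 in those labelled KIT+, over genes with a mean of at least 1 FPKM). The median SD of a gene between replicates was 0.20 on the log2 scale in libraries labelled THY1+ and 0.18 in those labelled KIT+. Sox3, Sall4, Zbtb16 and Dnmt1 were highest in replicate 3 of both groups, and Lyz2 and Cpa3 were lowest in replicate 3 labelled KIT+.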

How the data were processed

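RNA-seq of sorted spermatogonia was analysed from the FPKM (fragments per kilobase of gene, scaled to library depth) tables that the authors deposited. Per the labels and the methods of the study, stranded total RNA libraries depleted of ribosomal RNA were read as single reads, aligned with Novoalign to mm10 with repeated positions allowed, and counted with USeq. Reads of paralogs, histones and small RNAs are therefore uncertain. 

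No counts were given. Depth was estimated from the steps between low FPKM values, of which 74.4% to 78.2% in the 6 WT libraries were whole reads within 0.02, so depth and read numbers are approximate and intervals cover counting error only. Genes with a mean of at least 0.1 FPKM over the 12 libraries were put on the log2 scale after adding 0.1 FPKM. They were fitted with limma (version 3.58.1, in R version 4.3.3), with 4 group means and eBayes with trend and robust settings, two-sided, with Benjamini-Hochberg adjustment over all genes tested. The pseudocount understates changes of low genes. Values after ± are standard errors. The smallest p of a permutation test with 3 libraries against 3 is 0.1, so none was used. Promoters were taken from RefSeq (GRCm38.p6). The script was tested on simulated data. Named genes were Thy1, Kit, Sox3, Zbtb16, Sall4, members of 25 lists and the 10 largest calls each way among protein-named, non-overlapping genes of at least 1 FPKM. The members and lists were chosen with earlier results of these data known. Alternatives were other pseudocounts, filters, scalings and eBayes settings, a replicate block, fewer replicates, the WT libraries alone and each library left out. The values of 1 gene are not reported here.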

Additional observations from a re-analysis of the deposited data

Results flagged for a closer look

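As labelled, the KIT+ minus THY1+ difference differed between the WT and the cKO libraries of the Sox3 set in 7958 of 21212 genes (37.5%) by the interaction term in limma (adjusted p of at most 0.05 and at least 1.5-fold). Of the 312 named genes, 178 were among them. Thy1 and Kit, which go against the WT labels, differ between genotypes in the same way. With groups of like Thy1 and Kit levels aligned, the same test gave 0 genes, and 2709 had an unadjusted p under 0.05.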

How the results depend on the processing

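The number of WT calls was 4173 and stayed within 1.5 times of that under every alternative run: 2883 with a pseudocount of 1, 4107 with 0.01, 4234 with no filter, 2973 with a mean of at least 1 FPKM, 4268 after quantile normalization, 4255 after median-ratio scaling, 4244 without trend and robust settings, 2895 with replicates 2 and 3 alone, 3970 with the WT libraries alone, and 3245 to 4247 with 1 library left out. The lowest was without WT labelled THY1+ replicate 2. For the difference between the aligned WT and cKO contrasts (0 calls), a pseudocount of 1 gave 1 call and 0.01 gave 3, and leaving out 1 library gave 0 to 19. The 19 came without WT labelled THY1+ replicate 1, and 1 came without cKO THY1+ replicate 1. The cause was not tested.

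With the replicate block the WT contrast had 4574 calls and the difference 0. Same-numbered WT libraries correlated in their deviations from the group means by 0.231, 0.090 and 0.342, and different-numbered WT libraries by -0.294 to 0.144. Over all same-numbered pairs of the set the range was -0.119 to 0.348. The main fit did not treat the numbers as pairs, and these values do not settle whether libraries of 1 number share a batch. Of the 6 WT libraries, 5 correlated best with their own number. WT labelled KIT+ replicate 2 correlated more with WT labelled THY1+ replicate 1 (0.144).

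Of 137 named genes called, 109 kept the call in every fit with 1 library left out. Under every alternative in which the gene was tested, 99 kept it, and 0 of the 137 changed sign. Genes with a mean under 1 FPKM were not tested in the fit with that filter. Depth limits genes near 0.1 FPKM, where 1 library holds a few reads.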

Other observations

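Further immune gene families were higher in the libraries labelled KIT+. They were chosen after their values were seen and have no test as groups. All 11 Toll-like receptor genes tested were calls in that direction, beside 13.1% of all genes (median log2 fold change 4.33, beside 0.022 over all genes). Tlr1, Tlr7, Tlr8 and Tlr13 had means below 0.1 FPKM, the limit of the filter on low values, in the libraries labelled THY1+. They could pass it through libraries where they are high, so this count is a description. Tlr4, the receptor for bacterial lipopolysaccharide, was 0.158, 0.132 and 0.120 FPKM in the libraries labelled THY1+ and 5.26, 4.74 and 5.21 FPKM in those labelled KIT+. Tlr8 was at 0 in all 3 libraries labelled THY1+ and 6.15, 5.23 and 6.39 FPKM in those labelled KIT+, at least 422-fold higher against a floor of 3 reads over the group. Of 28 chemokine ligand genes, 19 were higher in the libraries labelled KIT+ and 3 (Cx3cl1, Cxcl13 and Ccl17) in those labelled THY1+, beside 13.1% and 6.53% of all genes. Ccl8, Ccl12, Ccl24 and Xcl1 were at 0 in all 3 libraries labelled THY1+ and could pass the filter on low values only through libraries where they are high, so these counts are a description. Xcl1, which lymphocytes release, was 29.0, 25.1 and 19.9 FPKM in the libraries labelled KIT+ and at 0 in the others, at least 266-fold higher against the same floor. All 5 genes tested with symbols that begin with Fcgr were calls too. They were taken by symbol alone. Fcgrt among them had a mean of 18.5 FPKM in the libraries labelled THY1+ and was not a call in the cKO (log2 fold change -0.42 there, beside 1.70 in WT). Fcgr1 and Fcgr4 were below 0.1 FPKM on average in the libraries labelled THY1+, so this count is a description too.

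Histone cluster genes ran the other way. Of 58 tested, 20 were higher in the libraries labelled THY1+ and 0 in those labelled KIT+, beside 6.53% and 13.1% of all genes (median log2 fold change -0.47), also chosen after their values were seen. Hist1h2aa, a histone gene of the testis, was 758, 1533 and 687 FPKM in the libraries labelled THY1+ and 352, 261 and 230 FPKM in those labelled KIT+. Histone genes resemble each other and reads were allowed several positions, so values of single members are uncertain.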
